A study of Mus musculus with 12 samples.

Results

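Transcript levels of Nsd1 and of 7 other genes of histone methylation (Setd2, Ash1l, Kmt2a, Dot1l, Setdb1, Kdm2a and Kdm2b) were followed in 4 mouse acute myeloid leukaemia (AML) cell lines. The members were all probe sets that the platform annotation pairs with these gene symbols. They came to 21 of the 45037 probe sets tested and stood for 7 of the 8 genes, with 4 for Nsd1, 1 for Setd2, 2 each for Kmt2a, Dot1l and Kdm2b, 3 for Setdb1 and 7 for Kdm2a. Ash1l had no listed probe set and was not analysed here. Nsd1 was chosen by its low intensity in B117H relative to B117P, so its values there, and in every comparison that uses the B117 arrays, are given as a description with no test. The other genes were taken from its family, with earlier results of these data known.

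B117H and B140H are lines with high resistance to Ara-C (cytarabine), a cytidine analogue that blocks DNA synthesis after the cell phosphorylates it. They were derived from B117P and B140P, which are Ara-C-sensitive parental lines. All 4 lines were derived from mice of the BXH-2 strain, which develops myeloid leukaemia through a retrovirus that it carries, and no further genotype or age is given in the labels. The labels give all 12 samples the same wording, on exposure to rising Ara-C and on passage in ASM medium without the drug. Each resistant line is a single line, each was measured on 3 arrays named A, B and C, and nothing in the labels says that these came from separate cultures, so that the p-values cover the spread among these arrays and no more.

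Histone methyltransferases and demethylases set and remove methyl groups on lysines of the nucleosome, and other proteins read these marks. Nsd1, Setd2 and Ash1l methylate H3K36, Setd2 along transcribed genes and Ash1l near promoters. Kmt2a (MLL) methylates H3K4 at promoters, Dot1l methylates H3K79 in transcribed genes, and Setdb1 places H3K9 trimethylation on retroelements. Kdm2a and Kdm2b remove methyl groups from H3K36, and both, like Kmt2a, carry a CXXC zinc finger that binds unmethylated CpG. In human AML, NSD1 is known as a fusion partner of NUP98, and KMT2A fusions recruit DOT1L to HOXA genes.

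Intensities below are the deposited RMA values on a linear scale, and changes are differences of log2(intensity + 1) between the means of 3 arrays per line. A change was called with limma at a Benjamini-Hochberg adjusted p under 0.05 over all 45037 probe sets. Array medians lay between 118 and 131. The correlation was 0.988 to 0.997 within a line and 0.954 to 0.967 between B117 and B140 arrays. The 8 myeloid markers summed to 44370 to 47341 in B117H and 55214 to 63263 in B117P, with all 8 above the array median. In B140H they summed to 17039 to 18239 and in B140P to 18512 to 19642, with 6 of 8 above it. Kit, at a mean of 47.2 in B140H and 35.2 in B140P, was below. So was Itgam, at 83.1, 59.9 and 51.9 in B140H and 114.8, 58.4 and 70.1 in B140P. The 6 measured B lymphoid markers summed to 4303 to 5812 in B117H, against 1055 to 1518 in B117P, and to 5149 to 6012 in B140H, against 4931 to 9150 in B140P. Single markers moved more than these sums show. Vpreb1 made up most of the B lymphoid sum in B117H, where it was 2.78 higher than in B117P (adjusted p = 4.82e-05). Blnk was higher there too, by 1.72 (adjusted p = 0.000341), while Cd79b was lower, by 0.75 (adjusted p = 0.0385). In B140H, Igll1 was lower by 1.45 (adjusted p = 0.0366, arrays overlapping) and Vpreb1 by 1.4 (adjusted p = 0.0114). Of the B lymphoid markers, 0 were called higher in B140H, yet the list split in direction. Cd79a read 748.2, 407.1 and 567 in B140H, against 355.4, 242.8 and 325.4 in B140P. Cd79b read 2425.4, 2588.8 and 3349.6, against 1498.3, 1971.6 and 2095.1. Both were higher with no overlap. Blnk was lower with no overlap and no call, at 80.3, 97.1 and 97.3, against 102.2, 120.3 and 165.1. Mpo, of myeloid granules, fell by 2.41 in B140H (adjusted p = 0.000284), and Elane fell by 1.63 in B117H (adjusted p = 0.0013). Of the 8 myeloid markers, 0 were called higher in either line and 2 were called lower in B117H. There all arrays of Itgam, Kit and Ptprc lay above those of B117P, and all of Mpo, Prtn3, Spi1 and Cebpa lay below. In B140H the arrays of Cebpa lay above, at 1365.4, 1175.7 and 1492.2, against 1066.9, 993.2 and 1073.5 in B140P. Of the macrophage markers, Adgre1 rose by 1.87 (adjusted p = 0.000348) and Lyz2 fell by 1.13 (adjusted p = 0.000229) in B117H, and Cd68 rose by 0.90 in B140H (adjusted p = 0.00197). Of the 4 stromal markers Pdgfrb rose by 1.07 in B117H (adjusted p = 0.00374). Of all 34 measured markers, 8 were called in B117H and 4 in B140H. In B117H 4 rose and 4 fell, both larger shares than the 4.73% of all genes called higher and 4.68% called lower. In B140H 1 rose and 3 fell, against 2.81% and 3.75% of all genes. The part of these marker differences in the results was not tested.

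Nsd1 was low in B117H. Its brightest probe set (1435088_at) read 37.7, 31.2 and 44.5 in B117H, against 309.2, 329.4 and 307.4 in B117P. It read 577.3, 580.3 and 661.8 in B140H, against 488.8, 601.9 and 703.2 in B140P. The B117H arrays lay far below all 9 others, while the B140H and B140P arrays overlapped. The means were 37.8 ± 6.66 in B117H, 315 ± 12.2 in B117P, 606 ± 48 in B140H and 598 ± 107 in B140P (SD, n = 3 each). In B117H this was 8.23-fold lower than in B117P, a log2 difference of -3.04 (SE 0.14, 95% interval -3.35 to -2.73). Since that difference chose the gene, it carries no test. The B117H mean lay above only 17.2% of the probe sets of that line, in the range that RMA compresses, and with no detection calls it may be background, so the fold is not exact.

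In B140H, the contrast that the choice of Nsd1 did not use, the same probe set differed by 0.03 (95% interval -0.28 to 0.35, limma adjusted p = 0.952). The B140 change minus the B117 change was 3.07 (95% interval 2.63 to 3.52), a description because it contains the B117 arrays. Nsd1 also read higher in B140P than in B117P, by 0.91, and higher in B140H than in B117H, by 3.98.

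The 3 dimmer Nsd1 probe sets did not move alike. The second (1440972_at) read 51.8, 51.7 and 38.7 in B117H, against 84.3, 92.7 and 80.5 in B117P, 1.81-fold lower, with no overlap. In B140H it read 112.7, 101.2 and 110.8, against 86.5, 87.9 and 92.4 in B140P, all higher, yet the change of 0.28 (95% interval 0.03 to 0.53) did not pass the test (adjusted p = 0.267). The third (1420881_at) lay between 43 and 61 on all 12 arrays and differed by 0.07 in B117H (95% interval -0.16 to 0.30) and by -0.10 in B140H (adjusted p = 0.749). The last (1456916_at) lay between 22 and 58, with a difference of -0.30 in B117H (95% interval -0.68 to 0.09) and a change of 0.05 in B140H (adjusted p = 0.945). All 3 lay under the median of all probe sets, where RMA compresses differences, and no detection calls came with the values.

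**Figure D1:**
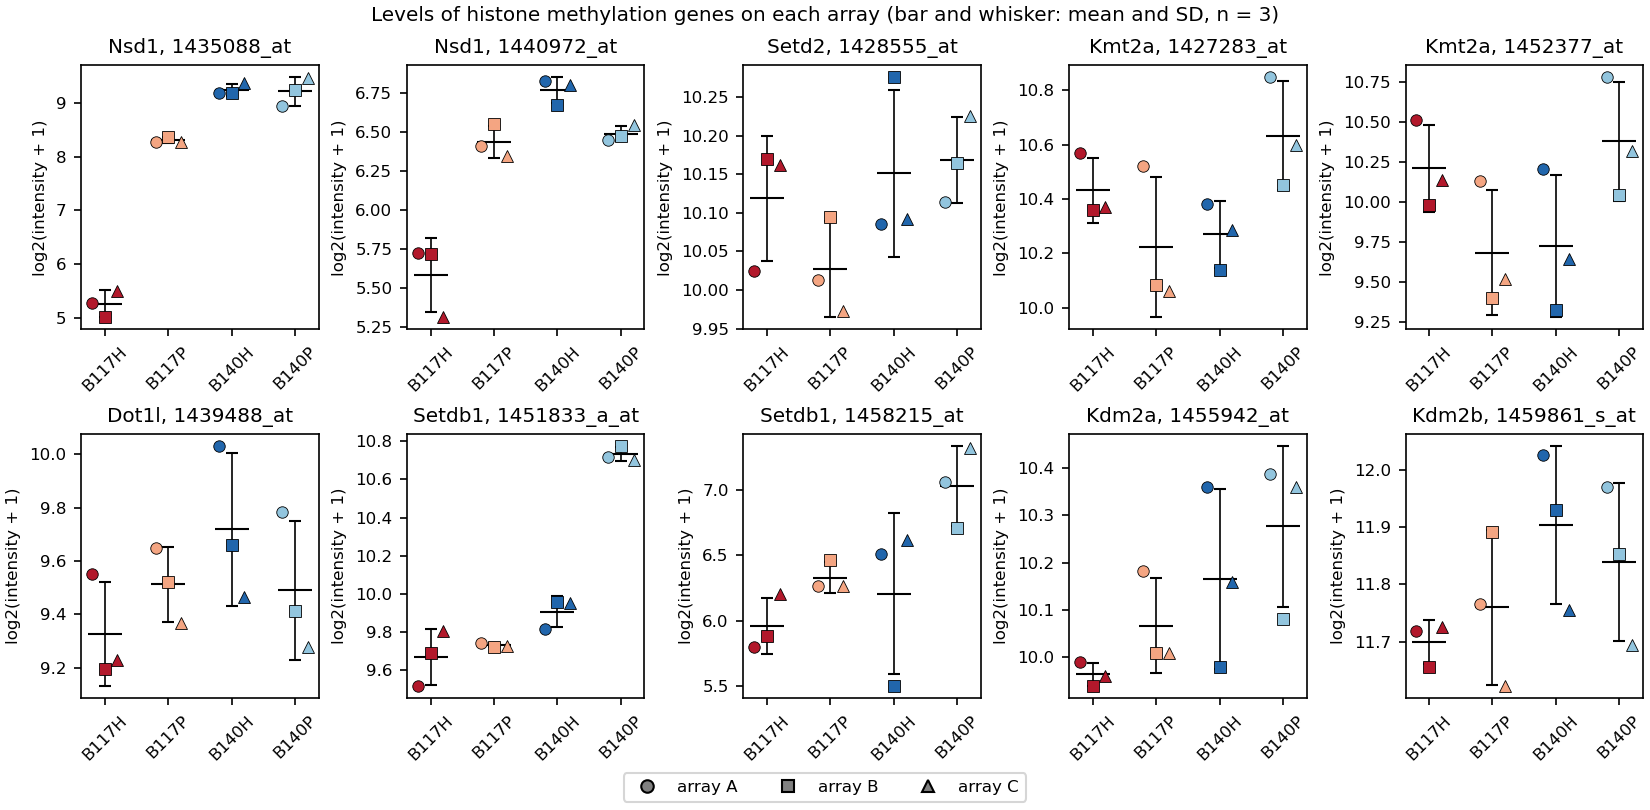
Each panel plots log2(intensity + 1) of 1 probe set on the 12 arrays, by line, with a bar and whisker for mean and SD (n = 3), and each panel has its own y axis. Nsd1 stands low in B117H, Setdb1 stands high in B140P, and array A lies highest in every line for both Kmt2a probe sets.

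Setdb1 fell in B140H. This H3K9 methyltransferase works with Trim28 and Atf7ip. Its promoter is shown because Setdb1 was the called member other than Nsd1. In the mouse genome (RefSeq, GRCm38.p6) it is at chr3:95357153-95357452 on the minus strand, from 250 bases before to 50 after the start. CpG sites, the ligand of the CXXC finger, are in capitals.

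Setdb1: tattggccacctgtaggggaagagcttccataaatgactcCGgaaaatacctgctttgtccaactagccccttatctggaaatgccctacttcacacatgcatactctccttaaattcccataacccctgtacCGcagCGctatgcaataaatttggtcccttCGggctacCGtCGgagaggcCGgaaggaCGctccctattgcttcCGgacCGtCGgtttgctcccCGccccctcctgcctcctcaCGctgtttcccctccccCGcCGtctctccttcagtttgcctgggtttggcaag

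The window holds 15 CpG sites (the letters CG, which read the same on both strands), and 34.6% of the 32851 RefSeq promoters of this length hold at least as many. Of the other members, Setd2 had 38, Kmt2a 36 and Dot1l 49 in the same window, counts reached by 4.95%, 6.23% and 1.02% of promoters, and the 4 entries of Kdm2b had between 18 and 49.

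The brightest Setdb1 probe set (1451833_a_at) read 900.3, 992.7 and 989.2 in B140H, against 1682.2, 1749.5 and 1665.3 in B140P. It read 731.8, 825.5 and 895.2 in B117H, against 856.9, 845.2 and 846.8 in B117P. All B140H arrays lay below all B140P arrays, and the B117 arrays overlapped. The means were 961 ± 52.4 in B140H and 1700 ± 44.5 in B140P (SD, n = 3 each), a change of -0.82 (SE 0.09, 95% interval -1.02 to -0.62, adjusted p = 0.000191), or 1.77-fold lower. In B117H the change was -0.06 (95% interval -0.26 to 0.14, adjusted p = 0.924).

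The difference between these 2 changes itself passed the test, at -0.76 (SE 0.13, adjusted p = 0.00284). It no longer passed without the B arrays of all lines (adjusted p = 0.0789) or without the C arrays (adjusted p = 0.0882). B140P started from a higher level: Setdb1 was 2-fold higher in B140P than in B117P (adjusted p = 3.95e-06). In B140H it was 0.24 higher than in B117H, which did not pass (adjusted p = 0.0962).

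The 2 dim Setdb1 probe sets pointed the same way in B140H without passing the test. One (1458215_at) read 90.1, 44.3 and 97.2 in B140H, against 132.2, 103.5 and 158.6 in B140P, a change of -0.82 (SE 0.25, adjusted p = 0.0947). It passed with the array letter as a replicate block (adjusted p = 0.0257) and without array C of B140H (-1.02, adjusted p = 0.0443). The other (1416670_at) read 99.6, 80.5 and 65.1 in B140H, against 122.2, 87.3 and 98.6 in B140P, a change of -0.33 (adjusted p = 0.47, and 0.08 with the block). Their B117H differences were -0.37 (adjusted p = 0.616) and -0.15, and for the first all B117H arrays lay below all B117P arrays. Their difference between the lineages did not pass, at -0.45 (adjusted p = 0.598) and -0.18 (adjusted p = 0.816). B140P minus B117P passed for these 2 with the block and not in the main fit without it. It was 0.70 (adjusted p = 0.0229, and 0.0755 in the main fit) and 0.37 (adjusted p = 0.02, and 0.243 in the main fit). The first also passed with no block in 4 other settings. These were only the 6 arrays of the pair (adjusted p = 0.0134), array weights (0.0214), no B arrays (0.00731) and no array B of B140H (0.00604).

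Kmt2a, the promoter H3K4 methyltransferase, gave different calls with and without the array letter in the fit. Its brighter probe set (1427283_at) read 1334.4, 1127.4 and 1246.9 in B140H, against 1841.5, 1399.2 and 1547.9 in B140P, in the order A, B, C. All B140H values lay below all B140P values, and the change of -0.36 (SE 0.14) did not pass (adjusted p = 0.224). With the letter as a block it passed, with an SE of 0.09 and an adjusted p of 0.0263. The second probe set (1452377_at) read 1179.9, 641.9 and 798.3 in B140H, against 1756.2, 1054.6 and 1277.7 in B140P. These arrays overlapped, but within each letter B140H was lower. The change was -0.66 (SE 0.25, adjusted p = 0.223), and with the block its SE was 0.09 and its adjusted p 0.000627.

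In B117H the same probe sets of Kmt2a differed from B117P by 0.21 (adjusted p = 0.61) and 0.53 (adjusted p = 0.351). The second read 1459.8, 1011.5 and 1126.7 in B117H, against 1119.9, 676.9 and 732.7 in B117P, with overlap. Letters did not pair B117H with B117P, so these arrays are not compared letter by letter. The difference between the lineages was -0.57 (adjusted p = 0.118) and -1.18 (adjusted p = 0.0692). With the block the adjusted p was 0.0101 and 8.21e-05, in a fit that takes the unpaired B117 arrays as paired. With no block, both passed without array A of B117P (-0.72, adjusted p = 0.028, and -1.41, adjusted p = 0.0304). The second also passed without array A of B140H (-1.42, adjusted p = 0.0242), without all A arrays (-1.3, adjusted p = 0.0141) and with brighter probe sets only (adjusted p = 0.0498). Between the parental lines, Kmt2a differed by 0.41 (adjusted p = 0.0651, and 0.00434 with the block) and 0.70 (adjusted p = 0.0848, and 7.1e-05 with the block), with B140P higher. Both passed there too with no block, without array A of B117P (adjusted p = 0.00982 and 0.0279) and without all A arrays (0.0317 and 0.0123). They also passed with array weights (0.0116 and 0.0203). Array A was the highest in all 4 lines for both. The same held for 8 of the 21 member probe sets (38.1%), against 8.04% of all probe sets.

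Dot1l, the H3K79 methyltransferase, did not pass in either line. Its probe set 1439488_at read 748.9, 585.7 and 599.5 in B117H, against 801.8, 733.6 and 659 in B117P, and 1044.7, 808.5 and 706.2 in B140H, against 879.1, 680.5 and 619.5 in B140P. The groups overlapped in both pairs. Its change was -0.19 in B117H (95% interval -0.54 to 0.17, adjusted p = 0.779) and 0.23 in B140H (95% interval -0.13 to 0.59, adjusted p = 0.611). The other probe set (1457268_at) gave -0.19 (adjusted p = 0.729) and 0.23 (adjusted p = 0.56).

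Setd2, the enzyme that trimethylates H3K36, was the flattest of the bright members. It read 1040.9, 1150.5 and 1144.8 in B117H, against 1032.6, 1092.7 and 1003.6 in B117P. It read 1085.9, 1238.5 and 1090 in B140H, against 1107.7, 1146.9 and 1196.4 in B140P. The groups overlapped in both pairs and the line means spanned 0.14 log2 units. Its change was 0.09 in B117H (95% interval -0.10 to 0.29, adjusted p = 0.819) and -0.02 in B140H (95% interval -0.21 to 0.18, adjusted p = 0.959).

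The H3K36 demethylases Kdm2a and Kdm2b were not called in either line by any of their 9 probe sets. The brightest of Kdm2a (1455942_at) read 1016.2, 981.8 and 996 in B117H, against 1160.9, 1029.5 and 1030.4 in B117P. The B117H arrays lay just below, and the change of -0.10 (95% interval -0.35 to 0.15) did not pass (adjusted p = 0.862). It read 1312.7, 1008.4 and 1141.9 in B140H, against 1338.5, 1082.5 and 1313.1 in B140P, a change of -0.11 (adjusted p = 0.746). The next (1435329_at) lay between 484 and 763 on the 12 arrays, with -0.18 in B117H and 0.01 in B140H. The 5 others lay between 23 and 154, with means below the median of all probe sets. For Kdm2b, 1459861_s_at lay between 3151 and 4169 and 1452198_at between 1376 and 2012, with -0.06 and -0.03 in B117H and 0.06 in B140H for both.

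Counted over the members, 2 of 21 probe sets were called in B117H minus B117P, both of Nsd1, against 6.95% of all probe sets. Because the rule used that contrast, nothing is read from this count. Of the 17 probe sets of the other genes, 0 were called with limma and 0 had an unadjusted p under 0.05, with changes between -0.37 and 0.53, a median of -0.06 (all probe sets -0.01) and a lowest adjusted p of 0.351. With the replicate block Kmt2a 1452377_at was called (0.53, adjusted p = 0.00187), though by the rule used the letters did not pair B117H with B117P. In B140H minus B140P, 1 of 21 was called, Setdb1, near the background of 4.65%, and 5 had an unadjusted p under 0.05. With the replicate block 4 were called, against 7.82% of all probe sets. The arrays of a pair did not overlap for 4 members in each pair, against 21.1% of all probe sets in B117 and 18.8% in B140.

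Of the 17 probe sets of genes other than Nsd1, the difference between the lineages was called for 1, Setdb1 (background 7.58%). B140P minus B117P was called for 1, again Setdb1, against 18.0%. With the block it was called for 5 of the 17, 3 of Setdb1 and 2 of Kmt2a, against 23.3%. B140H minus B117H was called for 0 with limma, against 20.7%, with a lowest adjusted p of 0.0888 and 4 with an unadjusted p under 0.05. With the block it was called for 4, against 27.0%: both probe sets of Dot1l (0.39 and 0.40, adjusted p = 0.0051 and 0.00406) and Kdm2a 1435329_at (0.31, adjusted p = 0.0195) were higher in B140H, and Kmt2a 1452377_at (-0.49, adjusted p = 0.00111) was lower. Without array C of B140H and with no block, Dot1l 1457268_at also passed (0.53, adjusted p = 0.0296), and without array B of B140H Setdb1 1458215_at did (0.60, adjusted p = 0.0271).

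**Figure D2:**
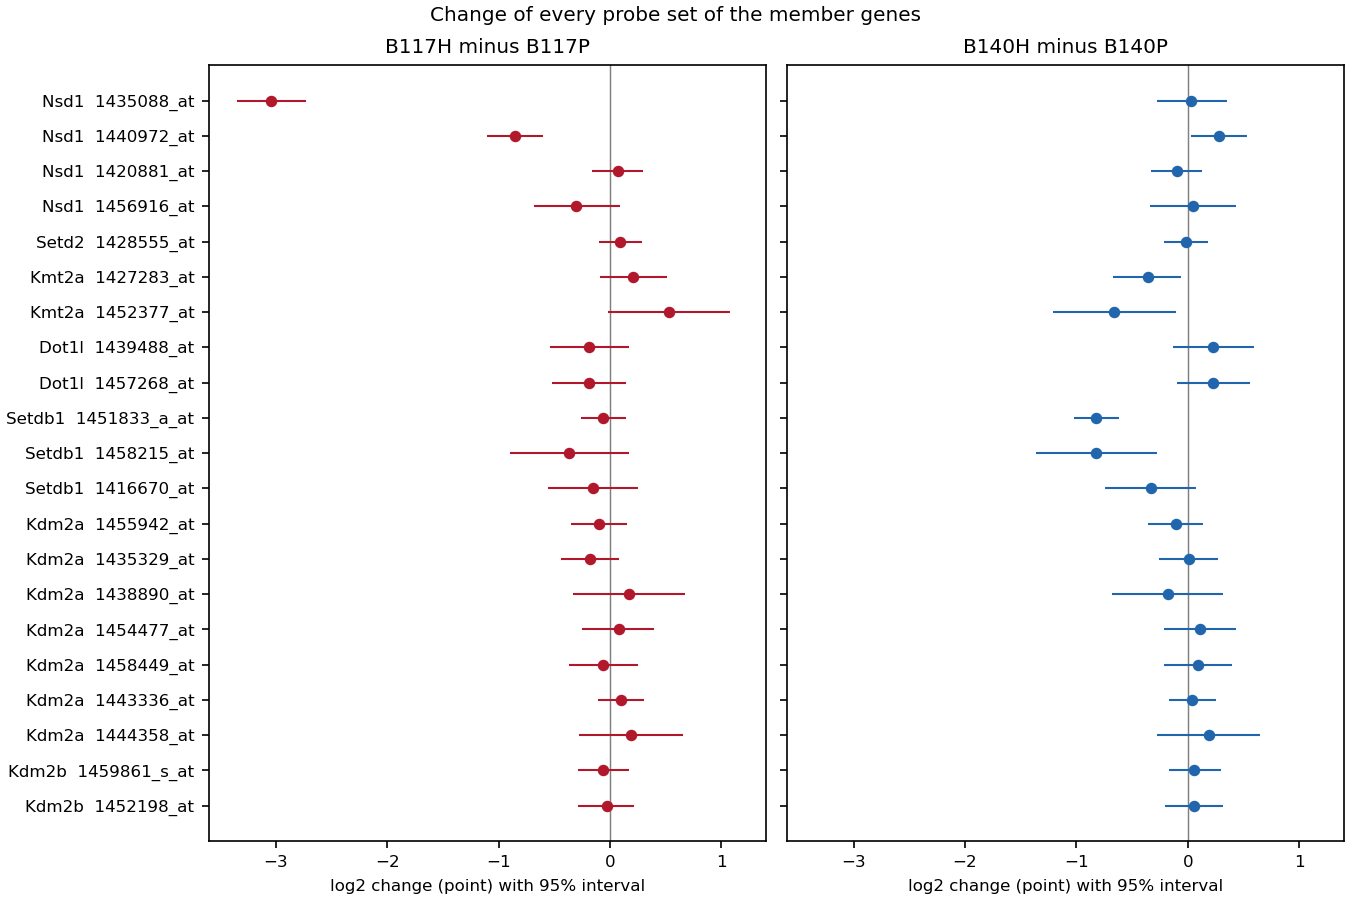
Points are log2 changes of all 21 probe sets, B117H minus B117P on the left and B140H minus B140P on the right, with 95% intervals. The intervals of Setd2, Dot1l, Kdm2a and Kdm2b include 0 in both pairs, and that of Setdb1 1451833_a_at lies below 0 in B140H.

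The genes beside Nsd1 on chromosome 13 were lower in B117H as well. Of the 5 nearest measured genes on each side in the reference annotation, 8 of 10 fell and 0 rose, with a median of -0.58, against 4.68% of all genes called lower and 4.73% called higher. Hk3, a hexokinase of myeloid cells, fell by 1.35 (adjusted p = 0.000125). It read 2291.9, 1794.1 and 2311.5 in B117H, against 5684, 6002.8 and 4638 in B117P. Lman2, a cargo receptor of the secretory pathway, fell by 0.98 (adjusted p = 5.14e-05), with 489.9, 543.7 and 627.2 in B117H, against 1046.4, 1131.8 and 1078.4 in B117P. In both genes the arrays were far apart.

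Rab24 fell by 0.84 (adjusted p = 0.000283), Rgs14 by 0.61 (adjusted p = 0.00841), Prelid1 by 0.60 (adjusted p = 0.0068), Uimc1 by 0.57 (adjusted p = 0.00187), Mxd3 by 0.54 (adjusted p = 0.0164) and Zfp346 by 0.40 (adjusted p = 0.0399). Unc5a and Fgfr4 did not pass, at -0.09 and 0.01. The call of Zfp346 ended in 9 of the 12 omissions of a single array (adjusted p up to 0.165). That of Mxd3 ended in 4, without B117P A (0.0664), B117P B (0.0608), B117H B (0.0652) or B117H C (0.0658). In B140H, 0 of the 10 fell and Lman2 rose by 0.39 (adjusted p = 0.0449), with a median of 0.12. Over 20 genes on each side, a width chosen after the values were seen, 25 of 40 fell in B117H and 0 in B140H. The lowest of the 40 in B117H was Hk3, at -1.35.

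Setdb1 on chromosome 3 had the corresponding surroundings in B140H, looked at after its change was known. Of its 10 neighbours 5 fell, against 3.75% of all genes called lower, and 0 rose, against 2.81% called higher. Anxa9 fell by 0.91 (adjusted p = 0.000435), Cers2, a ceramide synthase, by 0.83 (adjusted p = 0.000149), Arnt, the partner of the hypoxia factors, by 0.75 (adjusted p = 0.00274), Prune1 by 0.62 (adjusted p = 0.00917) and Ctss by 0.60 (adjusted p = 0.0192). The call of Prune1 ended without B140P A (adjusted p = 0.0506), and that of Ctss without B140P A (0.092) or B140H B (0.0705). Cers2 read 2823.4, 2878.5 and 3355.7 in B140H, against 5295.6, 5509.9 and 5222.4 in B140P, with no overlap. In B117H, 2 of the 10 fell, Gm4349 (-0.62, adjusted p = 0.00172) and Ctss (-0.60, adjusted p = 0.0138). Over 20 genes on each side 23 of 40 fell in B140H, with a median of -0.60, and 3 of 40 in B117H, with a median of -0.05. The neighbours of the 5 other measured members held at most 1 called gene in each direction in either line.

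**Figure D3:**
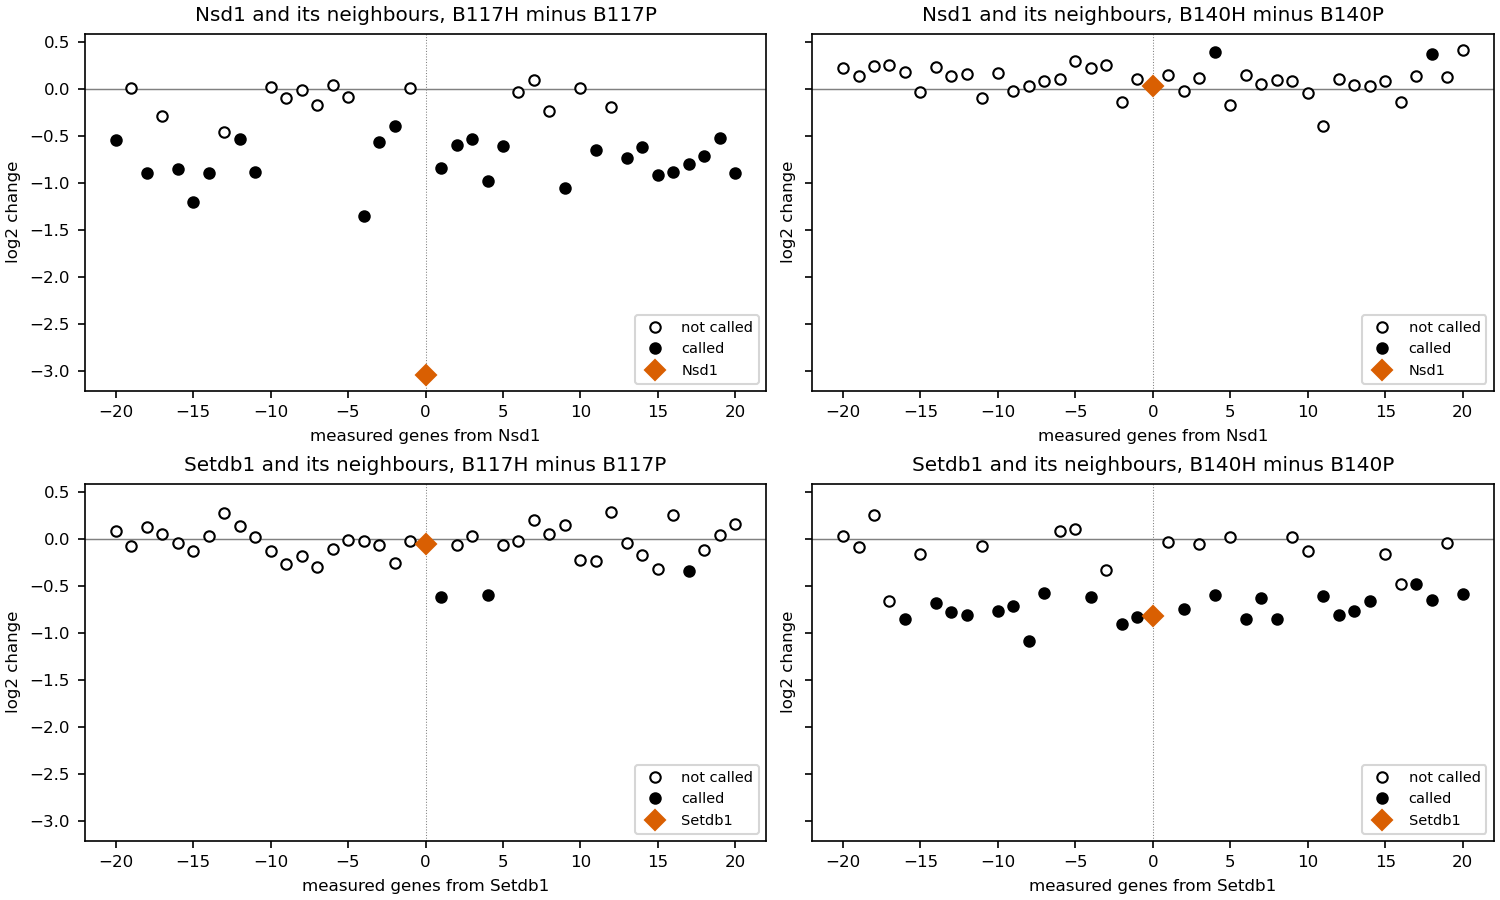
Each panel plots log2 changes of the 20 nearest measured genes on each side of Nsd1 (top) or Setdb1 (bottom) by their rank along the chromosome, B117H minus B117P on the left and B140H minus B140P on the right; filled points passed an adjusted p under 0.05. Genes around Nsd1 are low in B117H (25 of 40 called lower) and those around Setdb1 in B140H (23 of 40).

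The wider pathway was followed in 12 lists of histone methylation enzymes, their partners, readers and target genes, 136 measured genes of 143 symbols, the measured members included. In B117H 12 rose (8.82%, against 4.73% of all genes) and 6 fell (4.41%, against 4.68%), and 118 were not called. Their median was 0.03, against -0.01 over all genes. In B140H 2 rose (1.47%, against 2.81%) and 6 fell (4.41%, against 3.75%), and 128 were not called, with a median of 0.01, against 0.05. The shares that fell are near those of all genes, and the counts of single lists below are to be read against the same shares. Of the 129 that were no members, 12 rose and 5 fell in B117H, against 2 that rose and 5 that fell in the other resistant line.

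Among 6 H3K36 methyltransferases, Nsd3 and Smyd2 rose in B117H and 0 of 6 were called in B140H. Nsd3, the paralogue of Nsd1, read 1786.7, 1592.5 and 1648.5 in B117H, against 1217.4, 970.5 and 1125.3 in B117P, all higher (0.61, adjusted p = 0.00895). In B140H it read 1750.5, 1530.4 and 1421.4, against 1600.2, 1236.7 and 1303.5 in B140P, with overlap. Smyd2 rose by 0.41 in B117H (adjusted p = 0.0165). Nsd2, the other paralogue, was not called, with changes of 0.13 in B117H (adjusted p = 0.705) and 0.11 in B140H (adjusted p = 0.718).

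Of 15 readers of H3K36 methylation, the DNA methyltransferase Dnmt3a rose in B117H, with 1127.2, 1380.1 and 1439.7, against 660.2, 570.4 and 684 in B117P (1.04, adjusted p = 0.000144). Zmynd11, which reads H3K36 trimethylation on the histone variant H3.3, fell by 0.79 in B117H (adjusted p = 0.00358). In B140H, Dnmt3b fell, with 766.4, 801.5 and 767, against 1466.3, 1542.2 and 1551.8 in B140P (-0.96, adjusted p = 3.63e-05), and Pwwp2b rose by 0.40 (adjusted p = 0.0478). For Dnmt3a and Dnmt3b the groups did not overlap.

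Among 24 lysine demethylases, 2 rose and 3 fell in B117H. Kdm6a, the X-linked H3K27 demethylase, rose by 0.45 (adjusted p = 0.0237) and Kdm4a by 0.30 (adjusted p = 0.0468). Kdm1b, an H3K4 demethylase, fell by 0.70 (adjusted p = 0.00668) and Phf2 by 0.61 (adjusted p = 0.00143). Uty, the Y-linked homologue of Kdm6a, read 14.2, 13.5 and 14.5 in B117H, against 189.3, 228.2 and 222.4 in B117P, and fell by 3.82 (adjusted p = 7.98e-08). The B117H values were near the bottom of the scale, whose lowest value was 7.65. In B140H, Kdm7a fell by 1.06 (adjusted p = 0.00333), with 123.9, 73.8 and 85.7, against 222.6, 188 and 172.3 in B140P, and Riox1 by 0.38 (adjusted p = 0.0418).

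Among 17 H3K9 methyltransferases and partners, Atf7ip, which stabilises Setdb1, rose by 0.46 in B117H (adjusted p = 0.0126) and Mphosph8, of the HUSH silencing complex, by 0.47 (adjusted p = 0.00716). In B140H, Setdb2 fell by 0.31 (adjusted p = 0.0447) beside Setdb1, and Trim28 stood at 0.04 (adjusted p = 0.877). Of 13 measured partners of Dot1l in elongation complexes, Aff3 rose in both lines, with a change of 1.45 in B117H (adjusted p = 0.000665) and 1.12 in B140H (adjusted p = 0.00654). It read 3567.6, 4644.6 and 3747.8 in B117H, against 1080.9, 1758.6 and 1594.1 in B117P, and 255.8, 246 and 286 in B140H, against 105.1, 99.6 and 165.9 in B140P. Neither pair overlapped.

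In the remaining lists at most 1 gene was called in each line. Of 11 H3K4 methyltransferases Kmt2e rose in B117H (0.50, adjusted p = 0.0253), and of 14 COMPASS and menin subunits Ash2l rose (0.34, adjusted p = 0.04). Of 4 subunits of the Polycomb H3K27 methyltransferases Ezh1 rose in B117H (0.75, adjusted p = 0.0019). Of 8 partners of Kdm2b in the PRC1.1 complex Usp7 fell in B117H (-0.55, adjusted p = 0.00325). Of 9 arginine methyltransferases Carm1 fell in B140H (-0.50, adjusted p = 0.00583), with 1813.1, 2146.6 and 2029.5, against 2827.2, 2823.1 and 2789.3 in B140P. Of 13 genes known as targets of Kmt2a and Dot1l in leukaemia, Zeb2 rose in B117H (0.79, adjusted p = 0.0024). Hoxa9, a defining target, was not called, with -0.19 in B117H (adjusted p = 0.929) and -0.45 in B140H (adjusted p = 0.56). Of 3 H4K20 methyltransferases 0 were called with limma and 0 had an unadjusted p under 0.05 in either line.

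Several of these calls were close to the threshold and ended when a single array was left out. In B117H, the call of Smyd2 ended without B117P C (adjusted p = 0.0765), B117H A (0.0718) or B117H B (0.0746). That of Kmt2e ended without B117P A (0.0693), B117P B (0.0612), B117P C (0.0896), B117H A (0.0711) or B117H C (0.115). That of Atf7ip ended without B117P A (0.0518), B117P C (0.0532) or B117H C (0.0637), and that of Kdm6a without B117P A (0.0871), B117P C (0.08), B117H B (0.0683) or B117H C (0.106). The calls of Ash2l and Kdm4a in B117H ended in 8 and 11 of 12 omissions, and those of Setdb2, Riox1 and Pwwp2b in B140H in 11, 10 and 10. Some of these omissions were of arrays of the other lineage, which left the change as it was. Without B140P B, Kdm4a stayed at 0.30 in B117H (adjusted p = 0.0763). Without B117P B, Setdb2 stayed at -0.31 in B140H (adjusted p = 0.0615).

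Of the 6 listed genes that fell in B117H, 4 lie on chromosome 13: Nsd1, Kdm1b, Phf2 and Zmynd11. Nsd1 was chosen by its fall there, so its place in this count was fixed beforehand. Of the 5 that fell and were no members, Kdm1b, Phf2 and Zmynd11 lie on that chromosome. The lists held 6 measured genes of that chromosome, and the other two, Ell2 and Mef2c, were not called. Over all 705 measured genes of chromosome 13, 21.6% were called lower in B117H and 1.99% in B140H. Chromosome 3 held 5 listed genes, of which Setdb1 fell in B140H, and 11.2% of its 921 measured genes were called lower in B140H, against 2.28% in B117H.

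**Figure D4:**
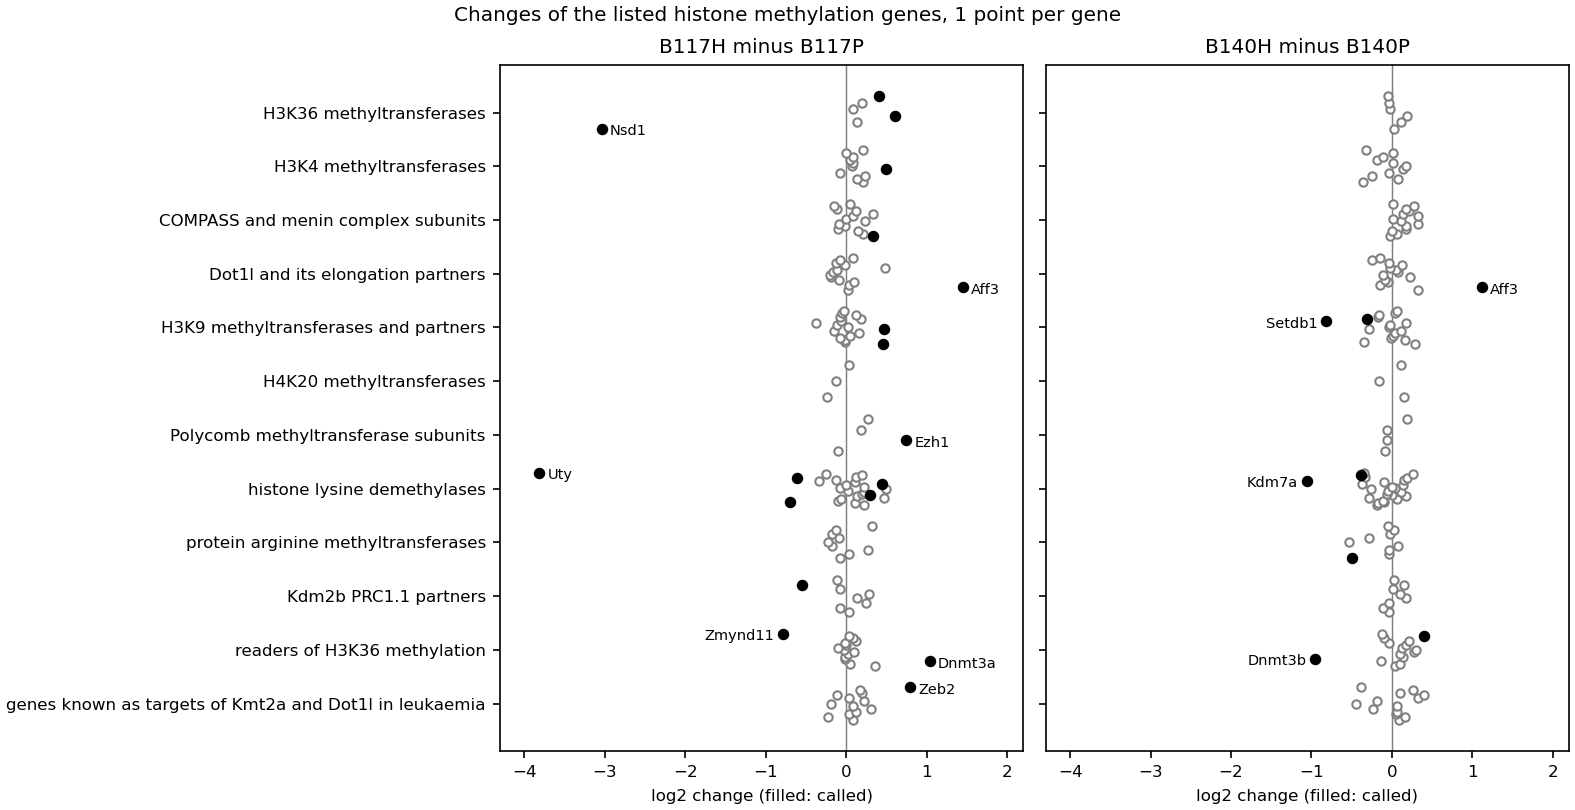
Each point is the log2 change of 1 gene, by list, B117H minus B117P on the left and B140H minus B140P on the right; filled points passed an adjusted p under 0.05, and those beyond 0.7 in size are named. Uty and Nsd1 lie far to the left in B117H, at -3.82 and -3.04, and Aff3 lies to the right in both.

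The genes whose levels over the 12 arrays were most like those of Nsd1 were Tyrobp, Uty, Sh3bp2, Erdr1 and Coq2, with Pearson's r of 0.994, 0.991, 0.991, 0.99 and 0.987 on the log2 scale. These points come from 4 lines, and all 5 genes had their lowest mean in B117H. That comes with their choice by likeness to Nsd1, which is lowest there, so nothing more is read from it. Tyrobp, an adaptor of myeloid receptors, averaged 2100 in B117H, 8960 in B117P, 12600 in B140H and 12000 in B140P. Uty averaged 14.1, Sh3bp2 166, Erdr1 6150 and Coq2 562 in B117H, against 213, 362, 15500 and 1190 in B117P.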

How the data were processed

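Total RNA of 4 lines was measured on 12 arrays, 3 per line, and amplified and biotin-labelled per the labels' protocols. The deposited intensity values are probe-set summaries made with RMA, per the submitters' processing notes; the sources used here give neither its version nor its settings. They run from 7.65 to 36675, so they were read as linear, and log2(value + 1) was used, a pseudocount of 1. The number of arrays limits the precision.

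Of 45101 probe sets 64 controls were left out. The platform annotation gave 34945 of the rest a single symbol, 932 several and 9160 none, and no gene was named from several. A gene outside the members stands for its brightest single-symbol probe set (18193 genes, 18145 matched in the GRCm38.p6 gene table, used for names, chromosomes and gene order). Fits used limma 3.58.1 in R 4.3.3 (lmFit, contrasts.fit, eBayes; 4 line coefficients, two-sided), tested on simulated data.

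Members and lists were chosen with earlier results of these data known. Named were all members, the 4 largest called genes per list, 5 neighbours per side and the 5 genes most like Nsd1. Letters pair arrays where all 3 correlations of deviations from the line mean exceed 0.1. They were 0.587, 0.36 and 0.56 for B140H with B140P, 0.499, 0.131 and 0.414 for B140P with B117P, and 0.455, 0.349 and 0.532 for B140H with B117H, so those pairs count as paired. For B117H with B117P they were 0.555, 0.0278 and 0.392, which counts as unpaired by this rule through the B arrays alone.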

Additional observations from a re-analysis of the deposited data

Results flagged for a closer look

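The change of Setdb1 (1451833_a_at) differed between the lineages by a test of the difference itself: the B140 change minus the B117 change was -0.76 (limma adjusted p = 0.00284), from -0.82 in B140H and -0.06 in B117H. All 3 B140H arrays were lower than all 3 B140P arrays, while the B117H and B117P arrays overlapped. The difference did not pass without the B arrays of all lines (adjusted p = 0.0789) or without the C arrays (0.0882). It did not pass for the 2 dim Setdb1 probe sets either, so it rests on 1 probe set.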

How the results depend on the processing

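The fall of Setdb1 1451833_a_at in B140H passed in all 24 other settings, with a change between -0.87 and -0.78 (adjusted p between 7.17e-05 and 0.028). Represented without probe sets ending in _s_at, _x_at or _a_at, Setdb1 gave -0.82 (adjusted p = 0.0947). The difference of Nsd1 1435088_at in B117H lay between -3.18 and -2.63. Member calls in B117H minus B117P were 2, 1 with brighter probe sets only, and 2 under each omission of an array. Calls in B140H minus B140P were 1, 4 with the replicate block (the pairing by letter), and 1 to 2 under omissions. Calls in the difference were 3, 6 with the replicate block, and 3 to 5 under omissions. Calls in B140P minus B117P were 2, 7 with the replicate block, 6 with array weights, 4 with only the 6 arrays of the pair, 4 without all A arrays, and 2 to 4 under omissions. The block added calls of Kmt2a, including 1452377_at in B117H (adjusted p = 0.00187) and both of its probe sets in the difference (0.0101 and 8.21e-05), and of Dot1l 1457268_at in the difference (0.0459). These calls use B117H and B117P, which by the rule used the letters did not pair, and that limits them. Calls in B140H minus B117H, added after the data had been seen, were 3, all of Nsd1, 7 with the replicate block and 3 to 5 under omissions. Nsd1 also made 2 of the 3 calls in the difference and 1 of the 2 in B140P minus B117P. Both calls in B117H minus B117P were of Nsd1 too. Since the B117 arrays chose Nsd1, its part in these counts is a description with no test. Genes next to Nsd1 called lower in B117H were 8, 3 without all B arrays, 4 without all C arrays and 6 to 8 under omissions. Those next to Setdb1 in B140H were 5, 2 without all A or all B arrays, 3 without all C arrays and 3 to 5 under omissions. Settings without a letter hold fewer arrays; the cause of the other moves was not tested. Probe sets called over the whole array ran from 1066 to 4743 in B117H (3131), from 607 to 3521 in B140H (2093), from 1004 to 5364 in the difference (3413) and from 4883 to 10476 between the parental lines (8091). Listed genes called higher ran from 4 to 16 and lower from 4 to 7 in B117H, and from 0 to 4 and 2 to 10 in B140H. Dim signal limits 10 of the 21 member probe sets, whose means lay below the median of all probe sets.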

Other observations

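The genes most like Setdb1 (1451833_a_at) over the 12 arrays, looked at after its change was known, were Cers2, Tmem74, Insm1, Epop and Ahcyl1 (Pearson's r 0.987, 0.984, 0.978, 0.978 and 0.977, over arrays of 4 lines). Cers2 and Ahcyl1 lie on chromosome 3, as Setdb1 does. Epop, which binds Polycomb complex 2 in mouse embryonic stem cells, averaged 31.6 in B140H and 417 in B140P, and 25.4 in both B117H and B117P. Insm1, a zinc finger factor of neuroendocrine cells, averaged 110 in B140H and 519 in B140P, and 76.7 in B117H and 68 in B117P.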
